A study of Mus musculus with 6 samples.

Results

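Chemokines and their receptors were described in testis mRNA by taking every gene whose symbol begins with Ccl, Cxcl, Cx3cl, Ccr, Cxcr, Cx3cr or Ackr followed by a digit. The deposited tables list 55 such genes among 23253 in all. They are 22 CC ligands, 10 CXC ligands, 1 CX3C ligand, 11 CC receptors, 6 CXC receptors, 1 CX3C receptor and 4 atypical receptors. In RefSeq, 65 mouse genes match the pattern, and the other 10 are at 0 in each of the 6 libraries here.

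The libraries were made from oligo(dT)-isolated mRNA of testes of C57BL/6 mice aged 8 months. There are 3 libraries labelled control and 3 labelled L3mbtl2 cKO, a conditional knockout of L3mbtl2, whose protein belongs to PRC1.6, a Polycomb complex. The labels give neither the Cre driver nor the cells in which the gene was deleted, and they do not say which alleles the control mice carried. Nor do they say whether each library is from its own animal, so the p-values below measure only the spread between libraries, which may be technical.

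Chemokines are small secreted or membrane-tethered proteins that steer cell movement. They are named for the spacing of their first cysteines, and they act through G protein-coupled receptors, while atypical receptors bind chemokines without G protein signalling and clear or shape their gradients. In the testis, Cxcl12 made by somatic cells and Cxcr4 on germline stem cells are known for their part in keeping the stem cell pool. Testicular macrophages are a known site of Cx3cr1.

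The targeted gene goes against the genotype labels. L3mbtl2 had 658, 705 and 673 expected counts in replicates 1 to 3 of the label control and 1030, 1105 and 1031 in those of the label cKO. Its level was thus higher in every library labelled cKO, with a log2 difference of 0.67 (SE 0.10, edgeR quasi-likelihood test, adjusted p = 0.166; DESeq2 adjusted p = 0.000497). The part of the gene that was deleted is not given in the labels. The deposited tables are named with the genotype opposite to the sample titles. Libraries are therefore called by their label and replicate number throughout, and every direction below is that of the labels.

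The libraries held 17689205 to 18822050 expected counts, of which 0.0154 to 0.029% fell on chemokine genes. The library labelled control replicate 2 was closer to the libraries labelled cKO than to the other controls. Across genes, its log2 CPM (counts scaled to library size) correlated with those of the libraries labelled cKO at r = 0.98 to 0.982, about as those libraries did with each other (0.981 to 0.982), while the libraries labelled control correlated among themselves at 0.937 to 0.972. Within the label control, the highest value (0.972) was that of replicates 1 and 2 and the lowest (0.937) that of replicates 2 and 3. Control replicate 3 was the least like the libraries labelled cKO, at 0.923 to 0.927. In sum, markers of Sertoli, Leydig, myoid and endothelial cells and of macrophages were each highest in control replicate 3. Single markers such as Aif1, Cnn1 and Egfl7 were not. Values without these libraries are given beside the results they move. Leaving out control replicate 2, the control most like the libraries labelled cKO, can by itself widen the gap between the labels. An adjusted p from that fit is therefore given as a description and not as support.

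Of the 55 genes, 23 were read well enough to compare, which here means a mean of at least 10 expected counts and a place among the 18269 genes that passed the edgeR filter on low counts. They are 13 ligands, 9 receptors and 1 atypical receptor. Only 6 of them, Ccl27a, Cxcl12, Cx3cl1, Ackr3, Cxcl16 and Cx3cr1, had a mean of 100 expected counts or more, where counting alone gives an error of 10%. At 10 counts that error is 31.6%. The remaining 32 genes are accounted for at the end.

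**Figure D1:**
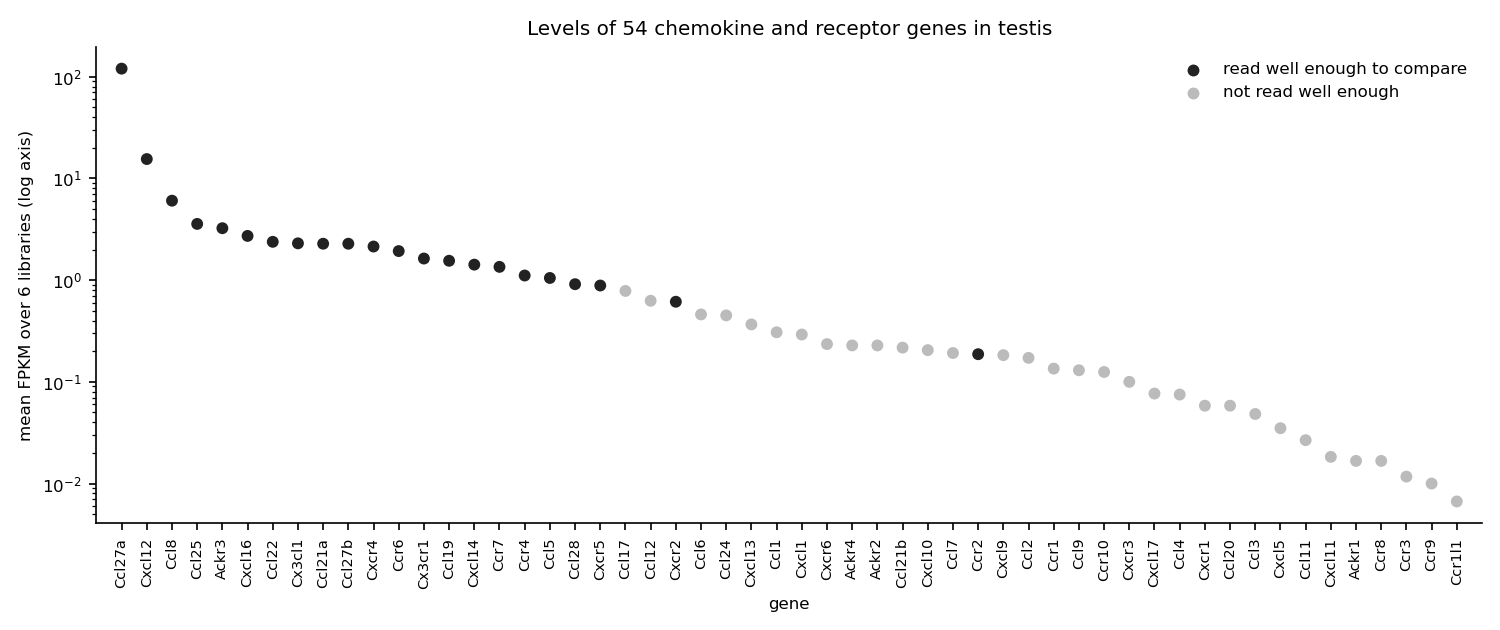
Mean FPKM over the 6 libraries (reads scaled for gene length and library depth; log axis) of 54 of the 55 chemokine genes, in falling order. Dark points are genes read well enough to compare and grey points the others, and Ccl27a stands above all, with a mean of 112 FPKM under the label control and 127 under cKO.

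No chemokine gene passed the threshold of an adjusted p of 0.05 in either direction, and no gene did in the whole table (0 of 18269, 0.0% higher and 0.0% lower; edgeR quasi-likelihood test, Benjamini-Hochberg adjustment). The lowest adjusted p was 0.166. At an unadjusted p of 0.05, 7 of the 25 chemokine genes that passed the filter were lower under the label cKO, against 18.8% of all genes, and 2 were higher, against 8.85% of all genes. The 7 are Cxcl12, Cx3cl1, Cxcl16, Cxcl14, Cxcr4, Cxcr6 and Ackr3, and the 2 are Ccr7 and Ccr4. Cxcr6 passed the filter only through the group where it was high, which leaves 6 lower among the 23 genes read well enough. DESeq2, an alternative test, called Cxcl12 and Cx3cl1 lower among 21 chemokine genes with an adjusted p, where it called 7.67% of all genes lower, and called none of the 21 higher, against 0.405% of all genes. By limma on log2 FPKM the call was 0 of 18 chemokine genes, beside 0.0065% of all genes higher with either pseudocount and 0.0% lower.

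By sign alone, the 23 genes did not lean to a side. The log2 difference, labelled cKO minus labelled control, was negative for 12 and positive for 11, with a median of -0.05 beside -0.01 over all genes tested, of which 50.5% were negative. Among the 13 ligands 6 were negative and among the 9 receptors 5 were negative. By size, the farthest from 0 were negative (Cxcl12 -1.84, Cxcl14 -1.31 and Cx3cl1 -1.28), and the highest positive value was that of Ccr7 (1.05). The 32 genes not read well enough are outside these counts. Among them the 3 with a mean of at least 10 counts (Ackr2, Ccl6 and Ccl24) all had a lower mean count under the label cKO. The others had fewer counts, and no split by sign is given for them. Without control replicate 2 the split was 11 negative and 12 positive (median 0.05), and without control replicate 3 it was 10 and 13 (median 0.11). The groups did not overlap in 5 of the 25 genes that were lower under the label cKO (Cxcl12, Cxcl16, Cxcl14, Cxcr4 and Cxcr6) and in 2 that were higher (Ccr4 and Ccr7). Over all genes the share without overlap was 19.8% lower and 18.0% higher, so the first count lies near the background and the second is below it. Among the 23 genes read well enough, which leave out Cxcr6, the first count is 4.

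**Figure D2:**
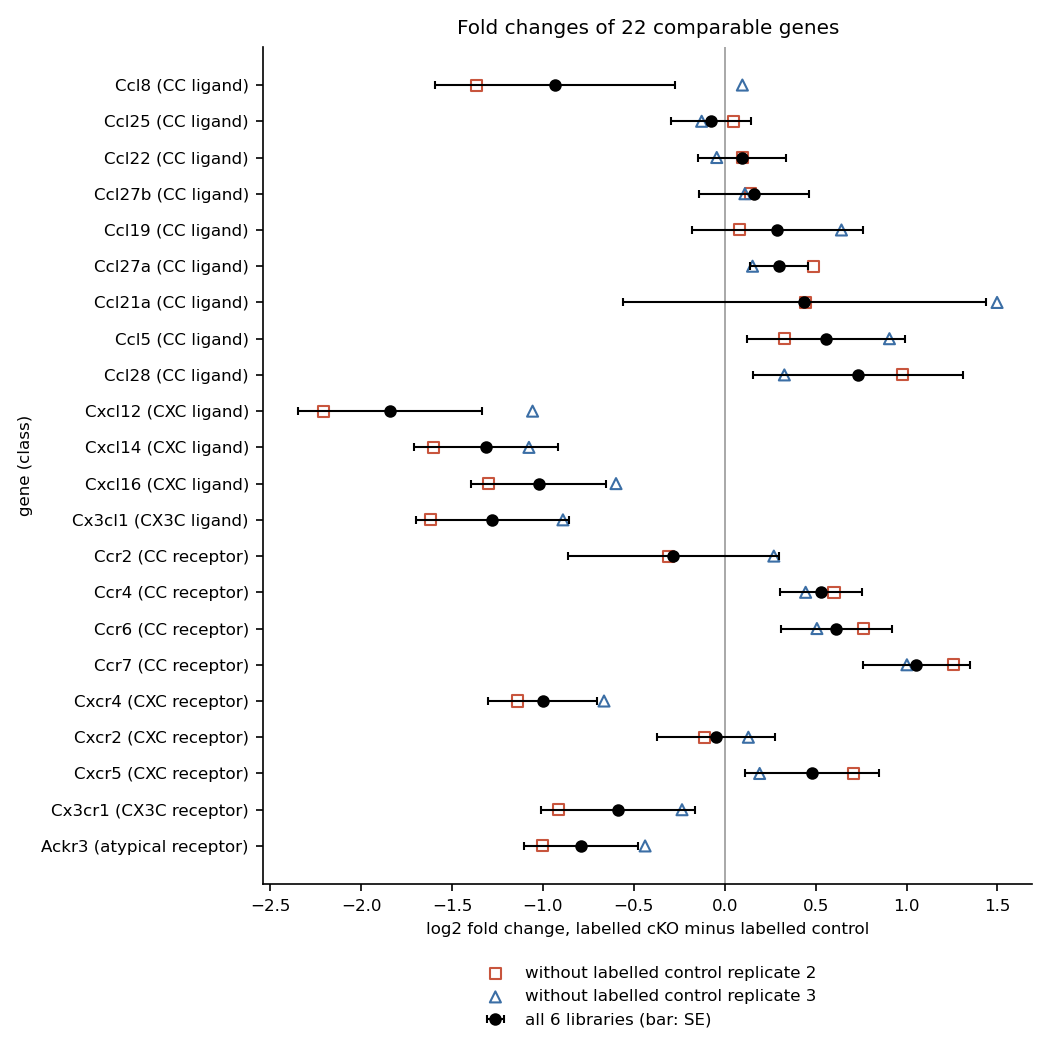
Log2 difference (labelled cKO minus labelled control, edgeR) of 22 of the 23 genes with bars of 1 standard error for all 6 libraries, and the value with control replicate 2 or 3 left out. With all 6 libraries, Cxcl12 lies farthest to the left, at -1.84, and Ccr7 farthest to the right, at 1.05.

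Promoters are shown for the genes with an unadjusted p under 0.05 that the RefSeq table holds, since these genes are followed library by library below. They are Cxcl12 (chr6:117168285-117168584, plus strand), Cx3cl1 (chr8:94771930-94772229, plus strand), Cxcl14 (chr13:56296502-56296801, minus strand), Cxcr4 (chr1:128592250-128592549, minus strand), Cxcr6 (chr9:123806227-123806526, plus strand), Ackr3 (chr1:90203730-90204029, plus strand) and Ccr4 (chr9:114496495-114496794, minus strand). The sequences come from RefSeq on GRCm38.p6, the primary assembly of mm10, and run 5′ to 3′ from 250 bases before an annotated transcript start to 50 after it. Capitals mark matches, on either strand, to the E-box CACGTG, the E2F-type motif TCCCGC, the GC box GGGCGG and the NF-kB consensus.
Cxcl12: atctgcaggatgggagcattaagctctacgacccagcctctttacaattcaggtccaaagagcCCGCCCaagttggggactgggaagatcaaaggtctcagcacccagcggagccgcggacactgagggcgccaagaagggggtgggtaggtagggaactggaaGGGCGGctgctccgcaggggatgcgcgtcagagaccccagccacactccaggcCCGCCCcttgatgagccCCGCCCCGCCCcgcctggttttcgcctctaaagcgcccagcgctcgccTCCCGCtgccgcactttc
Cx3cl1: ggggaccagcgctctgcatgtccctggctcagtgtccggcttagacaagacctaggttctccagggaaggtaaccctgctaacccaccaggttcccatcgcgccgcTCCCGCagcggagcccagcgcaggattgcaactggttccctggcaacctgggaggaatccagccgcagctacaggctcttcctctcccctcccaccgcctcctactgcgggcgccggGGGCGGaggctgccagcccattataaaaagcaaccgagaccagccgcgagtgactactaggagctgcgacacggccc
Cxcl14: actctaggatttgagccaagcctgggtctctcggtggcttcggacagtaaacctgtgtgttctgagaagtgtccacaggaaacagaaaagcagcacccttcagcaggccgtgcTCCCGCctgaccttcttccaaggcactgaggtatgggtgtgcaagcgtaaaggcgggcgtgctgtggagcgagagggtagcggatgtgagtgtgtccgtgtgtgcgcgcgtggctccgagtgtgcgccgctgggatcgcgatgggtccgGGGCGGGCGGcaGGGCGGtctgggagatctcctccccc
Cxcr4: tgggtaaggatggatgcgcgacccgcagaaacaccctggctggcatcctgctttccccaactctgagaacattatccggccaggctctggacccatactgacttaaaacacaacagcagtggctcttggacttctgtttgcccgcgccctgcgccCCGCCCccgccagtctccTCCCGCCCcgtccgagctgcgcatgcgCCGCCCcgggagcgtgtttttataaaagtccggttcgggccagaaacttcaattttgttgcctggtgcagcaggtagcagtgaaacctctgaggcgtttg
Cxcr6: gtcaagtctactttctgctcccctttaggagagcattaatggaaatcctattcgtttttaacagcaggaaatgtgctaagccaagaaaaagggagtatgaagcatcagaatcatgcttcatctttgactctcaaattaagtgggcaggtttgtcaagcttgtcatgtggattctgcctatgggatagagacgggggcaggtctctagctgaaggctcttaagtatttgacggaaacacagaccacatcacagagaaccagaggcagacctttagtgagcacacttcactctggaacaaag
Ackr3: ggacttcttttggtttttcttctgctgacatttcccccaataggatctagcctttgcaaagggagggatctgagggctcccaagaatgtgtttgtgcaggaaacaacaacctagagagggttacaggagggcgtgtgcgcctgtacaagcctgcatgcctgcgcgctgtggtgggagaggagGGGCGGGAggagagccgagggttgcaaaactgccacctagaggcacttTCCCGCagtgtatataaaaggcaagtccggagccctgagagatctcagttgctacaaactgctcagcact
Ccr4: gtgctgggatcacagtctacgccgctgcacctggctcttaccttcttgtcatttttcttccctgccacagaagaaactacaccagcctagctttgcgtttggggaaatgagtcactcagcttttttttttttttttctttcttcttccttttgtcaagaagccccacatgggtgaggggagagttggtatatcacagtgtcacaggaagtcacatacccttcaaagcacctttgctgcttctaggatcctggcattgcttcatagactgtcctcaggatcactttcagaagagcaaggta

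PRC1.6, the complex to which L3MBTL2 belongs, is known to contain E2F6 and the E-box binding pair MGA and MAX, and NF-kB is the classic inducer of inflammatory chemokines. The E-box was in 0 of the 48 promoters of 41 chemokine genes that the RefSeq table holds, and in 7.15% of 32851 mouse promoters. The E2F-type motif was in 10 of the 48 (20.8%), against 20.0% of all promoters, and was in the printed promoters of Cxcl12, Cx3cl1, Cxcl14, Cxcr4 and Ackr3 but not in those of Cxcr6 and Ccr4. The GC box was in 10 of the 48 (20.8%), against 35.7% of all, with 5 matches in Cxcl12 and 3 each in Cxcl14 and Cxcr4. The NF-kB consensus was in 10 of the 48 (20.8%), against 8.46% of all, and in none of those printed. GC box and E2F matches can overlap. The printed promoters of Cxcl12 and Cx3cl1 had 64.7% G and C, that of Ccr4 had 46.3% and that of Cxcr6 44.3%, beside a median of 52.7% over all promoters. These are matches of letters in a window and say nothing of binding.

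The most abundant chemokine mRNA was Ccl27a, a CC ligand best known from skin keratinocytes, where it draws memory T cells through Ccr10 (chr4:41769467-41774225). Its FPKM was 114, 134 and 89.3 under the label control and 127, 123 and 130.1 under the label cKO. Control replicate 3 was the lowest library and control replicate 2 the highest, so in FPKM the cKO values fell inside the control range. In CPM cKO replicate 3 was the highest, at 85.5 beside 83.1 in control replicate 2. Ccl27a alone made up 41.5 to 76.8% of the summed FPKM of all chemokine genes, with the lowest share in control replicate 3. Its log2 difference was 0.30 (SE 0.16, edgeR adjusted p = 0.234; 0.0283 to 0.437 over the alternatives). Without control replicate 2 it was 0.49 with an adjusted p of 0.0283 by edgeR, and without control replicate 3 it was 0.15.

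Ccl27b, a near copy of Ccl27a, had a mean of 2.21 ± 0.32 FPKM under the label control and 2.34 ± 0.661 under cKO (SD, n = 3). Ccl27a exceeded it 40.2-fold to 73.9-fold in the 6 libraries, and reads of the copies may be split unevenly between them. Ccl28, the other ligand of Ccr10 and a product of mucosal epithelia, was at 0.97, 0.91 and 0.26 FPKM in the labelled control libraries and 1.56, 0.47 and 1.3 in the labelled cKO libraries. Its lowest value was in control replicate 3, and the groups overlapped (log2 difference 0.73, SE 0.58, edgeR adjusted p = 0.398). Without control replicate 3 the difference was 0.33. Their receptor Ccr10 was not read well enough to compare.

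Cxcl12, the stromal ligand of Cxcr4, had the lowest unadjusted p of the 23 genes, 0.00708 in the edgeR test (chr6:117168535-117181368). Its FPKM was 19.6, 8.6 and 47.5 in replicates 1 to 3 of the label control and 6.2, 6.07 and 5.19 in those of the label cKO. The groups did not overlap, but control replicate 2 lay close above the cKO range and control replicate 3 far above it. The means were 25.2 ± 20.1 FPKM and 5.82 ± 0.549 FPKM (SD, n = 3). In CPM they were 59.3 and 16.6, a smaller gap (3.58-fold). The length listed for Cxcl12 differed between libraries, and it enters FPKM but not CPM. For Cxcl12 the log2 difference was -1.84 (SE 0.51, edgeR adjusted p = 0.166; 0.00848 to 0.377 over the alternatives). It was -2.21 without control replicate 2, where edgeR called it lower (adjusted p = 0.00848), and -1.06 without control replicate 3 (adjusted p = 0.17). DESeq2 gave -1.81 with an adjusted p of 0.0475.

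Cxcr4, the G protein-coupled receptor of Cxcl12, was at 2.42, 2.16 and 4.2 FPKM under the label control and 1.32, 1.42 and 1.34 under the label cKO (chr1:128588199-128592299). Each control value was above each cKO value, and the cKO libraries differed little. This was a log2 difference of -1.0 (SE 0.30, edgeR adjusted p = 0.166; 0.0246 to 0.377 over the alternatives), -1.14 without control replicate 2, where edgeR called it lower (adjusted p = 0.0246), and -0.66 without control replicate 3. Ackr3, the atypical receptor that also binds Cxcl12 and removes it, was at 3.89, 2.63 and 6.13 FPKM against 2.57, 2.29 and 1.93 (chr1:90203980-90215724). Control replicate 2 lay just above the highest cKO library in FPKM, while in CPM the groups overlapped. Its log2 difference was -0.79 (SE 0.31, edgeR adjusted p = 0.171), -1.0 without control replicate 2 (adjusted p = 0.0242), and -0.44 without control replicate 3.

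Ligand and receptors of the Cxcl12 axis did not keep a fixed ratio. The ratio of Cxcl12 to Cxcr4 FPKM was 8.08, 3.98 and 11.3 in the labelled control libraries and 4.7, 4.27 and 3.87 in the labelled cKO libraries. In FPKM control replicate 2 thus lay inside the cKO range. By counts it lay just below that range (401 to 69, beside 295 to 47 in cKO replicate 2). The length listed for Cxcl12 ran from 2461 to 2932 bases over the libraries, and that for Cxcr4 from 1813 to 1821. The ratio of Cxcl12 to Ackr3 FPKM was 5.03, 3.27 and 7.75 against 2.41, 2.65 and 2.69, without overlap. Ligand and receptor were thus both higher in the libraries labelled control, and the ligand more so in control replicates 1 and 3.

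**Figure D3:**
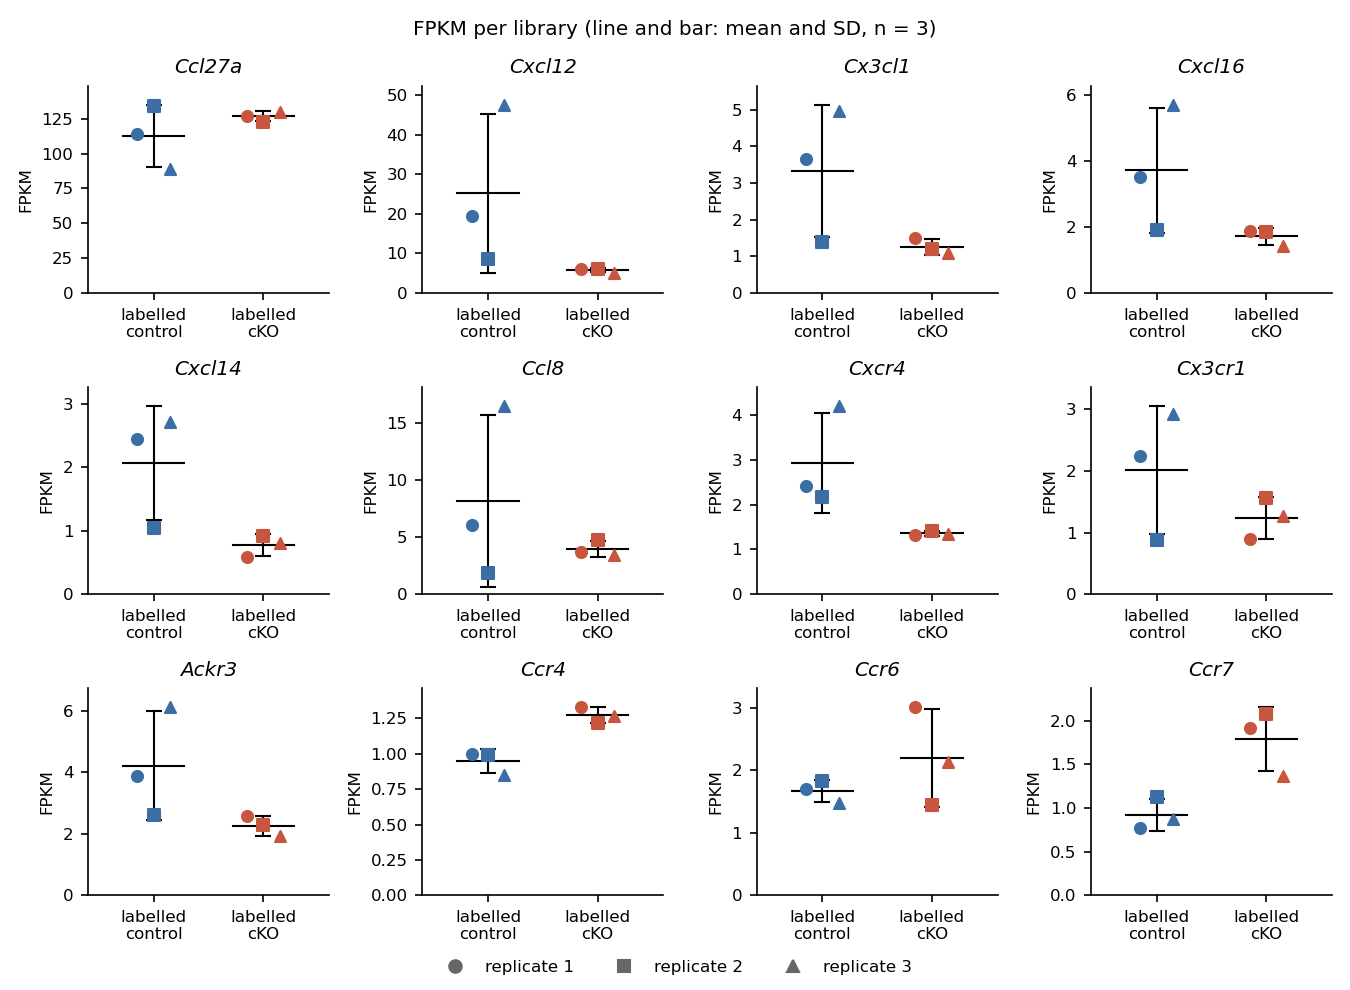
FPKM (linear axis from 0) of selected ligands and receptors in each library, with the group mean and 1 SD (n = 3). Control replicate 3 is the highest library for Cxcl12, at 47.5 FPKM, while for Ccr7 the 3 libraries labelled cKO lie at 1.37 to 2.07, above all controls.

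Cx3cl1, or fractalkine, is a ligand that is made membrane-bound and is released by shedding, and Cx3cr1 is its only known receptor, typical of monocytes and macrophages. Cx3cl1 was at 3.64, 1.39 and 4.95 FPKM in replicates 1 to 3 of the label control and 1.51, 1.2 and 1.09 in those of the label cKO (chr8:94772180-94782427). Control replicate 2 lay inside the cKO range and the other controls above it. Its log2 difference between the labels was -1.28 (SE 0.42, edgeR adjusted p = 0.166; 0.00848 to 0.377 over the alternatives), -1.62 without control replicate 2 (adjusted p = 0.00848), and -0.89 without control replicate 3. DESeq2 called it lower, at -1.25 and an adjusted p of 0.0388.

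Cx3cr1 was at 2.25, 0.88 and 2.92 FPKM under the label control and 0.89, 1.56 and 1.27 under the label cKO (chr9:120048683-120068296). Control replicate 2 was the lowest of the 6 libraries, so the groups overlapped. The log2 difference was -0.59 (SE 0.42, edgeR adjusted p = 0.354; 0.0369 to 0.757 over the alternatives), -0.92 without control replicate 2, where edgeR called it lower (adjusted p = 0.0369), and -0.24 without control replicate 3. The ratio of Cx3cl1 to Cx3cr1 stayed between 1.58 and 1.7 in the controls and was 1.7, 0.769 and 0.858 under the label cKO.

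Cxcl16, the other membrane-bound chemokine, is a ligand of Cxcr6 and a scavenger receptor for oxidised lipid (chr11:70454389-70459984). It was at 3.53, 1.92 and 5.71 FPKM in the labelled control libraries and 1.89, 1.85 and 1.42 in the labelled cKO libraries. The groups did not overlap, though control replicate 2 lay next to the highest cKO library. This was a log2 difference of -1.02 (SE 0.37, edgeR adjusted p = 0.167; 0.0135 to 0.377 over the alternatives), -1.30 without control replicate 2 (adjusted p = 0.0135), and -0.60 without control replicate 3. In the GENCODE annotation, 18.3% of its exon bases lie under exons of Zmynd15, which runs on the opposite strand. Zmynd15, a gene of haploid germ cells, stood at 71.1 ± 12.9 FPKM under the label control and 91.3 ± 2.82 under cKO (SD, n = 3), the reverse order. The sources used here do not give strandedness, so reads of the shared bases cannot be assigned.

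Cxcl14, a CXC ligand of epithelia and stroma, was at 2.44, 1.04 and 2.72 FPKM in replicates 1 to 3 of the label control and 0.59, 0.92 and 0.81 in those of the label cKO (chr13:56288643-56296811). The groups did not overlap, and control replicate 2 was again next to the cKO range. Its log2 difference between the labels was -1.31 (SE 0.40, edgeR adjusted p = 0.166; 0.0112 to 0.377 over the alternatives), -1.60 without control replicate 2 (adjusted p = 0.0112), and -1.08 without control replicate 3. Leaving out that library moved it by less than it moved Cxcl12, Cx3cl1, Cxcl16 or Cxcr4.

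Ccl8, a ligand of inflammatory cells made by tissue macrophages, changed direction when 1 library was left out (chr11:82115185-82116799). It was at 6.06, 1.89 and 16.5 FPKM under the label control and 3.66, 4.72 and 3.45 under the label cKO. Control replicate 3 was the highest and control replicate 2 the lowest of the 6. The log2 difference was -0.93 (SE 0.66, edgeR adjusted p = 0.347) with all libraries, -1.37 without control replicate 2 (adjusted p = 0.0433) and 0.10 without control replicate 3.

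Ccr7, the receptor that brings dendritic cells and T cells to lymph nodes, had the highest log2 difference among the 23 (chr11:99144199-99155077). Its FPKM was 0.77, 1.12 and 0.87 in the labelled control libraries and 1.92, 2.07 and 1.37 in the labelled cKO libraries. All cKO libraries were above all control libraries, with control replicate 2 the nearest. This was a log2 difference of 1.05 (SE 0.29, edgeR adjusted p = 0.166; 0.0243 to 0.377 over the alternatives), 1.26 without control replicate 2, where edgeR called it higher (adjusted p = 0.0243), and 1.0 without control replicate 3.

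The ligands of Ccr7 did not show the same order. Ccl19 was at 1.34, 0.91 and 2.1 FPKM in replicates 1 to 3 of the label control and 1.43, 2.56 and 0.96 in those of the label cKO. The groups overlapped (log2 difference 0.29, SE 0.47, edgeR adjusted p = 0.686), with 0.079 without control replicate 2 and 0.64 without control replicate 3. Ccl21a, the lymphatic ligand, was set to 0 in control replicate 1, whose table has no value for it, and was between 1.24 and 4.17 FPKM in the other libraries (log2 difference 0.44, SE 1.0, edgeR adjusted p = 0.779). It was -0.15 without control replicate 1 and 1.498 without control replicate 3. Its near copy Ccl21b was listed in control replicate 2 alone, so the division of reads between the copies is uncertain.

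Ccr4, the receptor of Ccl22 and Ccl17 on helper and regulatory T cells, was chosen for its values by library after these were seen, because its groups did not overlap (chr9:114490316-114505476). It was at 1.0, 0.99 and 0.85 FPKM under the label control and 1.33, 1.22 and 1.27 under the label cKO. Each group was narrow and the cKO libraries lay above the controls. Its log2 difference between the labels was 0.53 (SE 0.23, edgeR adjusted p = 0.179; 0.11 to 0.384 over the alternatives), and 0.45 without control replicate 3. Its ligand Ccl22 was at 2.39 ± 0.519 FPKM against 2.38 ± 0.281 (SD, n = 3; log2 difference 0.10, SE 0.24, edgeR adjusted p = 0.799).

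Ccr6, the receptor of Ccl20, is known from Th17 cells, B cells and the sperm of mice (chr17:8236041-8258519). It was at 1.7, 1.82 and 1.47 FPKM in the labelled control libraries and 3.01, 1.45 and 2.13 in the labelled cKO libraries. Replicate 1 of the label cKO was the highest library. The lowest was cKO replicate 2 in FPKM but control replicate 3 in CPM, and the groups overlapped. The log2 difference was 0.61 (SE 0.31, edgeR adjusted p = 0.214). Its ligand Ccl20 was not read well enough to compare.

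Cxcr5, the follicular homing receptor of B cells and helper T cells, stood at 0.767 ± 0.284 FPKM under the label control and 1.0 ± 0.194 under cKO (SD, n = 3; log2 difference 0.48, SE 0.37, edgeR adjusted p = 0.382). Its difference was 0.71 without control replicate 2 and 0.19 without control replicate 3. Ccl25, the ligand of Ccr9, was at 3.81 ± 0.312 against 3.33 ± 0.286 FPKM (log2 difference -0.08, SE 0.22, edgeR adjusted p = 0.823). The Cxcr5 exons share 3.3% of their bases with Bcl9l and the Ccl25 exons 2.74% with Elavl1, both on the opposite strand. The neutrophil receptor Cxcr2 was at 0.647 ± 0.15 against 0.58 ± 0.166 FPKM (log2 difference -0.05, SE 0.33, edgeR adjusted p = 0.929).

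Ccl5, a ligand made by T and NK cells, was at 0.85, 0.52 and 1.27 FPKM under the label control and 1.21, 0.91 and 1.52 under the label cKO. The groups overlapped (log2 difference 0.56, SE 0.43, edgeR adjusted p = 0.39), and the difference was 0.33 without control replicate 2 and 0.91 without control replicate 3. Ccr2, which releases monocytes from the bone marrow, was low, at 0.21 ± 0.131 against 0.163 ± 0.0764 FPKM (SD, n = 3; log2 difference -0.28, SE 0.58, edgeR adjusted p = 0.754), with a difference of 0.27 without control replicate 3.

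Summed by class, the receptors split. The CXC receptors together had 4.39, 4.05 and 6.25 FPKM under the label control and 3.12, 3.45 and 2.95 under the label cKO, led by Cxcr4. The CC receptors together had 4.4, 4.47 and 4.98 FPKM against 6.95, 5.11 and 5.42. Thus the controls lay above the cKO libraries in the first sum and below them in the second, there by a narrow margin (4.98 against 5.11). The genes of a class did not move together. In log2 difference Cxcr5 was at 0.48 and Cxcr2 at -0.05, unlike Cxcr4. Among the CC receptors Ccr4, Ccr6 and Ccr7 were at 0.53, 0.61 and 1.05, but Ccr2 was at -0.28. The ligands other than Ccl27a summed to 51.9, 31.8 and 104 FPKM against 31.5, 33.3 and 27.5, with control replicate 2 inside the cKO range and control replicate 3 far above.

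Control replicate 3 was the highest of the 6 libraries for 11 of the 23 genes, which is 47.8% beside 40.9% of all genes tested. Control replicate 2 lay inside the range of the libraries labelled cKO for 12 of the 23, which is 52.2% beside 41.0% of all genes. The range was wider among the libraries labelled control for 17 of the 23. The median ratio of the highest to the lowest library was 2.26 among the controls and 1.51 among the cKO libraries.

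Markers of somatic cells had the same order as the genes that were lower under the label cKO. All 15 Sertoli cell markers and all 12 Leydig cell markers tested had negative log2 differences (medians -0.93 and -1.73, and -0.55 and -0.98 without control replicate 3), led in level by Clu and Cst12 and by Insl3 and Ptgds. The same held for all 11 markers of peritubular myoid and stromal cells (median -0.71, and -0.42 without control replicate 3) and for 10 of 11 endothelial markers (median -0.53, and -0.31 without that library). Without control replicate 2 the 4 medians were -1.16, -2.07, -0.96 and -0.69. Of the spermatogonial markers 9 of 11 tested were negative (median -0.45), while Gfra1 and Id4 were each positive at 0.15. All 11 spermatid markers were positive (median 0.34). The Leydig list summed to 4280, 2110 and 10400 FPKM in the labelled control libraries and 1490, 1650 and 1510 in the labelled cKO libraries. The Sertoli list summed to 1690, 1140 and 2970 FPKM against 891, 914 and 868. In both sums control replicate 3 was highest, and control replicate 2 was the nearest to the cKO libraries, as for Cxcl12. DESeq2, which called 7.67% of all genes lower, called 14 of the Sertoli, 7 of the Leydig, 3 of the myoid and 0 of the endothelial markers lower, while edgeR called none in these or the lists below. The part of these cells in the chemokine results was not tested, and in bulk tissue fewer cells of a type and less RNA per cell cannot be told apart.

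Macrophage and monocyte markers had the same order. Of 17 tested, 16 were negative, with a median of -1.41 (-0.68 without control replicate 3 and -1.68 without control replicate 2). The exception was Aif1, which is also expressed in the germ line, at 290.0 FPKM against 354 (log2 difference 0.38). Without it, a choice made after its values were seen, the list summed to 169, 84.1 and 317 FPKM in replicates 1 to 3 of the label control and 80.1, 82.4 and 70.0 in those of the label cKO. Cd68 was at 5.27 ± 2.3 against 1.82 ± 0.621 FPKM and Lyz2 at 50 ± 37.3 against 17.3 ± 1.62 (SD, n = 3). Itgam, an integrin of myeloid cells, was at 0.813 ± 0.445 against 0.2 ± 0.0781 FPKM. DESeq2 called 9 of the 17 markers lower, beside 7.67% of all genes. The part of these cells in the results for Cx3cr1 and Ccl8 was not tested.

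Markers of lymphocytes and NK cells, the usual carriers of Ccr7, Ccr4 and Cxcr5, did not separate the groups. Of 16 markers 6 were tested, 3 negative and 3 positive (median -0.06, and 0.062 and 0.033 without control replicate 2 or 3). The list summed to 6.64, 6.79 and 7.28 FPKM under the label control and 7.28, 6.21 and 6.69 under the label cKO. Cd3d was at 1.98 against 2.3 FPKM, Cd4 at 0.5 against 0.303 and Cd8b1 at 1.21 against 1.26, and Ncr1 was at 0 in every library. Of 11 markers of neutrophils and mast cells 2 were tested, 1 in each direction (median -0.10, and 0.20 without control replicate 3). Their sum was 1.78, 1.6 and 2.06 FPKM against 2.35, 2.71 and 2.23, with the labelled cKO libraries above the controls, and S100a9 was at 0.

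**Figure D4:**
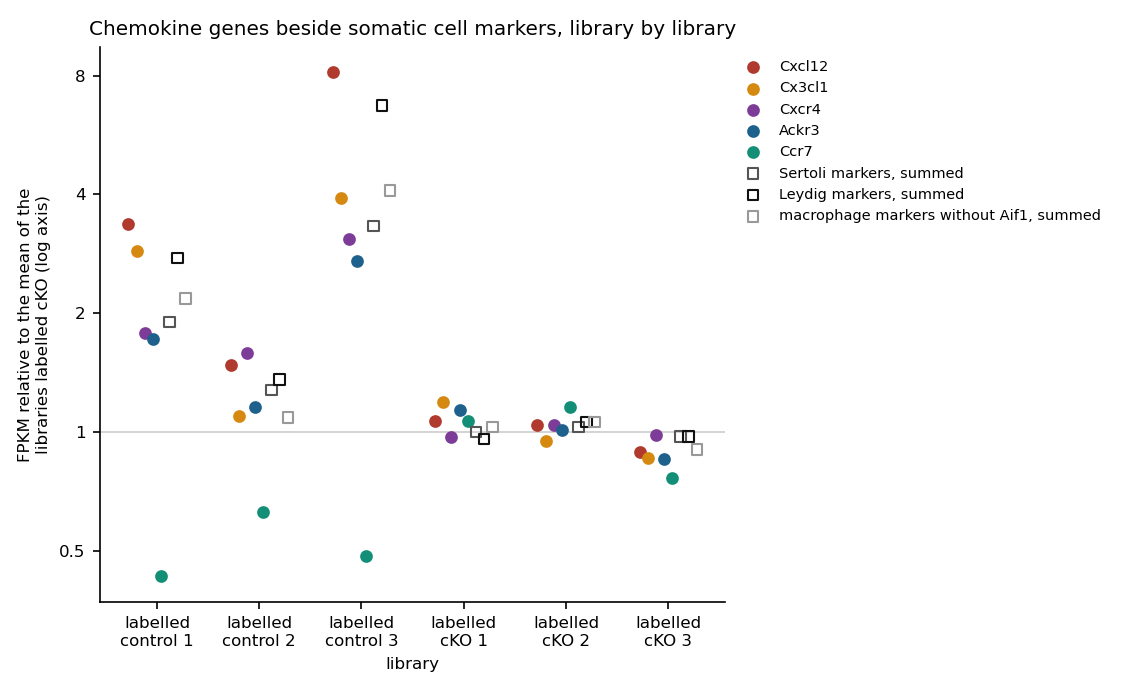
FPKM in each library relative to the mean of the 3 libraries labelled cKO (log axis), for chemokine genes beside the summed FPKM of cell type marker lists. Control replicate 3 stands at 8.16 for Cxcl12 and 6.71 for the Leydig list, and control replicate 2 at 1.48 and 1.36. In CPM, not drawn, Cxcl12 was at 109 in control replicate 3 and 22.1 in control replicate 2, beside a cKO mean of 16.6.

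Chemokines and receptors whose symbols fall outside the naming pattern were taken as a list of their own. Of 11 such genes in the list, 8 were tested, 6 negative and 2 positive (median -0.52, and -0.18 without control replicate 3). Pf4, or Cxcl4, a chemokine of platelets and tissue macrophages, was at 5.56 ± 3.26 FPKM under the label control and 1.83 ± 0.664 under cKO (SD, n = 3; log2 difference -1.49, SE 0.52, edgeR adjusted p = 0.166). Mif, an atypical ligand of Cxcr4, was at 73.2 against 47.4 FPKM, with control replicate 2 (47.06) inside the cKO range. The log2 difference of Mif, fitted to counts, was -0.33 (-0.105 without control replicate 3), a smaller gap than that of the FPKM means. Cd74, the receptor chain of Mif, was at 23.6 against 13.8 FPKM (log2 difference -0.66, and 0.07 without control replicate 3). Cmklr1, the chemerin receptor, was at 11.7 against 13.7 FPKM (log2 difference 0.30). By DESeq2 0 of the 8 were called.

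Of the genes that carry the signal of chemokine receptors, 22 were tested, 17 negative and 5 positive (median -0.38). DESeq2 called 3 of the 22 lower, beside 7.67% of all genes, and edgeR none. The G protein subunits Gnai2 and Gnb1 were at 48.3 against 27.7 FPKM and 58.9 against 45.6. Rgs2, which shortens G protein signals, was at 8.92 against 2.45 FPKM (log2 difference -1.75; DESeq2 adjusted p = 0.0145), and the kinase gene Jak2 at 3.97 against 1.67 (log2 difference -1.14; DESeq2 adjusted p = 0.0254). Without control replicate 3 the median of the list was -0.15.

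Genes for the shedding, cleavage and surface presentation of chemokines were negative in all 11 of the 12 that were tested (median -0.91, and -0.45 without control replicate 3). DESeq2 called 4 of the 11 lower, beside 7.67% of all genes. Mmp14, a membrane protease that can cleave Cxcl12, was at 15 against 6.63 FPKM (log2 difference -1.06). The heparan sulfate carrier Sdc4 was at 27.7 against 12.5 FPKM (log2 difference -1.04). Ndst1, which sulfates the heparan chains that hold chemokines at the cell surface, was at 6.63 against 3.25 FPKM (log2 difference -0.91). Ctsg, a protease of neutrophils, was at 0.

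Cytokines, their receptors and NF-kB genes that induce chemokines were negative in 13 of 14 tested, of 20 in the list (median -0.85, and -0.52 without control replicate 3). DESeq2 called 5 of the 14 lower, beside 7.67% of all genes. The interleukin-1 receptor gene Il1r1 was at 7.24 against 2.16 FPKM (log2 difference -1.64) and the TNF receptor gene Tnfrsf1a at 21.9 against 7.91 (log2 difference -1.36). The interferon gamma receptor gene Ifngr1 was at 7.94 against 4.34 FPKM (log2 difference -0.82), and the NF-kB subunit gene Rela at 22.1 against 16.2 (log2 difference -0.34). The inducers Il6 and Il17a were at 0. The somatic markers above had the same order, and their part in these lists was not tested.

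The 32 genes not read well enough comprise 20 ligands, 9 receptors and 3 atypical receptors. Their mean FPKM lay between 0.00667 and 0.783 and their mean count at or below 12.2. Of these, 13 were listed in every library, 5 in a single library, and 10 had a mean count under 1. Among them were the inflammatory ligands Ccl2, Ccl3, Ccl4, Ccl7, Ccl11, Ccl12 and Cxcl1, which draw monocytes, eosinophils and neutrophils. The interferon-induced ligands Cxcl9, Cxcl10 and Cxcl11 and their receptor Cxcr3 were also among them, as were Ccl1, Ccl17, Ccl20, Ccl21b, Cxcl5, Cxcl13, Cxcl17, Ccr1, Ccr1l1, Ccr3, Ccr8, Ccr9, Ccr10, Cxcr1, Ackr1 and Ackr4. For 18 of the 32 the highest count was in control replicate 3 alone. The share among the genes that passed the filter was 40.9%, but no share was taken over genes of such low counts. Some of these highest counts were very low (2 for Ccl11 and 5 for Ccl20), so the order of the libraries is uncertain.

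Of these 32, 3 had a mean of at least 10 counts but did not pass the filter, and they are named with values after these were seen. Ccl6, a macrophage ligand, had 6, 6 and 42 counts in the labelled control libraries and 8, 2 and 5 in the labelled cKO libraries. Ccl24, an eosinophil ligand, had 9, 4 and 36 against 2, 2 and 7. In both genes control replicate 3 alone was high. Ackr2, a scavenger of inflammatory CC chemokines, had 20, 8 and 30 counts against 6, 7 and 2, without overlap.

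The receptor Cxcr6, which binds Cxcl16 and is known from resident T cells, passed the filter only through the libraries labelled control, so its difference is partly set by the filter. It was singled out after its values were seen, with 12, 11 and 12 counts in those libraries and 6, 2 and 4 under the label cKO. Its log2 difference was -1.48 (SE 0.45, edgeR adjusted p = 0.166). With Cxcl9 it is 1 of the 2 genes that passed the filter below a mean of 10 counts.

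Leaving out control replicate 2 moved the calls more than any other change. In that fit edgeR called 11.0% of all genes higher and 20.7% lower under the label cKO. Among 26 chemokine genes tested it called Ccl27a and Ccr7 higher and 9 lower, namely Cxcl12, Cx3cl1, Cxcl16, Cxcl14, Cxcr4, Ackr3, Cx3cr1, Ccl8 and Ackr2. Ackr2 is not among the 23 and passed the filter in that fit through its high libraries, control replicates 1 and 3, so its call is partly set by the filter. Leaving out control replicate 3 gave 0 calls in the family, beside 0.0108% of all genes higher and 0.0% lower. The edgeR adjusted p was then 0.17 for Cxcl12, 0.228 for Cx3cl1, 0.269 for Cxcl16, 0.2 for Cxcl14 and 0.187 for Cxcr4. It was 0.316 for Ackr3, 0.757 for Cx3cr1, 0.921 for Ccl8, 0.177 for Ccr7 and 0.428 for Ccl27a. Without control replicate 3, 1 of 26 chemokine genes tested (Ccr7, 3.85%) was higher at an unadjusted p of 0.05 by edgeR, against 8.15% of all genes. In that same fit 5 of the 26 (Cxcl12, Cx3cl1, Cxcl14, Cxcr4 and Cxcr6, 19.2%) were lower, against 12.7% of all genes. Cxcr6 is not among the 23, which leaves 4. Leaving out cKO replicate 2 or 3 gave 0 calls in the family, beside 0.0161% and 0.00536% of all genes higher. For 1 gene alone, an exact two-sided permutation test over 3 and 3 libraries gives no p below 0.1.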

How the data were processed

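Members were taken by the symbol rule above, and they and the gene lists were chosen with earlier results of these data known. Libraries were grouped by their titles. Expected counts and FPKM are columns of the deposited tables, per the file headers, and the submitters' processing notes name bcl2fastq 2.16, HISAT2 2.0.4, Bowtie2 2.2.5, RSEM, DESeq2 and mm10, with no role for any tool. The authors' expected counts are not normalized, and 24.6 to 25.8% of those deposited are not whole. The deposited FPKM carry the authors' scaling for gene length and library depth, and genes below 0.01 are left out of a table, so a missing gene was set to 0.

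After rounding, expected counts went into edgeR 4.0.16 (R 4.3.3): filterByExpr (minimum count 10, minimum total 15), TMM scaling, and the quasi-likelihood test of labelled cKO minus labelled control with Benjamini-Hochberg adjustment over 18269 genes. The common biological coefficient of variation was 22.8%. Each SE of an edgeR log2 difference was derived from the test, as its absolute size divided by the square root of the F statistic. The fit was also run on simulated counts, drawn independently for each gene. These lack the differences that many genes share between the controls, so that run does not test the fit for them. Alternatives were DESeq2 1.42.0, limma 3.58.1 on log2 FPKM with a pseudocount of 1 or 0.1 for genes of at least 1 FPKM in 3 libraries, other scaling and filters, a replicate block, and each library left out. Gene coordinates and promoters are from RefSeq GRCm38.p6, where all 55 genes were matched, and exon overlaps from GENCODE vM21. Every gene with a mean of at least 10 counts that passed the filter was named, except 1 that is counted but not reported here. Values in every library were given for those with a mean of at least 100 and for the 8 others of largest absolute log2 difference, and known ligands and receptors were set side by side. Of each gene list, the 2 of highest mean FPKM and the 2 of smallest p were candidates for naming.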

Additional observations from a re-analysis of the deposited data

How the results depend on the processing

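Of 312 values of single genes under the 14 alternatives, 288 kept their direction and side of the threshold, 12 passed it in the same direction and 12 changed direction. Leaving out 1 library moved Ccl19 between -0.162 (cKO replicate 2) and 0.642, Ccl21a between -0.147 (control replicate 1; -0.043 without cKO replicate 2) and 1.498, Ccl22 between -0.044 (control replicate 3) and 0.263, and Ccl25 between -0.144 and 0.049 (control replicate 2). It moved Ccl27b between -0.054 (cKO replicate 2) and 0.308, Ccl8 between -1.367 and 0.097 (control replicate 3), Ccr2 between -0.635 and 0.27 (control replicate 3; 0.06 without cKO replicate 2), and Cxcr2 between -0.188 and 0.173 (cKO replicate 1; 0.13 without control replicate 3). With library totals Ccl22 was at -0.002. The cause was not tested. Over all genes, DESeq2 called 72 higher and 1364 lower, limma called 1 higher with either pseudocount, and leaving out 1 library gave 0 to 2049 higher and 0 to 3851 lower by edgeR. In the family DESeq2 called 2 lower, and leaving out 1 library gave 0 to 2 higher and 0 to 9 lower. The family's median log2 difference ran from -0.13 to 0.11 when 1 library was left out, turning positive without control replicate 2 (0.05), control replicate 3 (0.11) or cKO replicate 1 (0.02). With library totals in place of TMM it was -0.15, beside a shift of -0.10 in the median of all genes. Replicate numbers did not pair the libraries (correlations of deviations 0.0428, -0.00665 and -0.0388; 2 of 6 libraries were closest to their own number), and a replicate block gave 0 calls in either direction and a family median of -0.07. Depth limits what can be said of the 32 genes with few counts.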
